A study of Bos taurus with 48 samples.

Results

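Death receptor signalling is a route by which a cell is told from outside to die. The genes followed here were 9 named components of that route, FAS, FASLG, FADD, CASP8, CFLAR, TNFSF10, BID, BCL2 and BAX, measured on microarrays of bovine endometrium. A probe was taken as a member where the gene symbol printed for it on the array equalled one of these names. This rule found 9 probes of 7 genes among the 17407 distinct symbols on the array. FASLG, TNFSF10, CASP8, CFLAR and BAX had 1 probe each, and FADD and BCL2 had 2. No probe carried the symbols FAS or BID. FAS was present under its older symbol TNFRSF6, matched here through the probe's accession, and its probe is described beside the others although the rule did not take it. No probe of BID was found by accession or gene number.

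The samples were endometrium of 22 lactating Holstein-Friesian dairy cows of mixed New Zealand and North American ancestry, all with synchronised oestrous cycles and all slaughtered on day 17 of the reproductive cycle. On day 7, 12 of the cows had received a grade 1 blastocyst by embryo transfer and were pregnant, and the other 10 were cyclic, with no embryo transferred. From each cow a caruncular and an intercaruncular sample was taken. Caruncles are the raised, gland-free sites at which the ruminant placenta attaches, and the intercaruncular endometrium between them carries the uterine glands. Of the pregnant cows, 7 carried a large embryo, over 20 cm long and over 75 mg, and 5 a small one, under 20 cm and under 40 mg. The labels also classed 6 of the pregnant cows as fertile and 6 as sub-fertile. Every array set a Cy5-labelled sample against the same Cy3-labelled pool of all samples, and dyes were not swapped. Values below are log2 of the sample over the pool with each array's median at 0, so that a value of 0 is the level of the pool. Differences between groups are on the same log2 scale. As each value is relative to the pool for that probe, levels were not compared between genes.

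Death receptors sit on the cell surface and belong to the tumour necrosis factor receptor family. When FAS ligand, the product of FASLG, binds FAS, or when TRAIL, the product of TNFSF10, binds its own receptors, the adaptor FADD is recruited and brings in procaspase 8, the initiator protease encoded by CASP8. CFLAR encodes c-FLIP, a relative of caspase 8 without protease activity that competes for the same place on FADD. BID, once cut by caspase 8, carries the signal to the mitochondrion, where BAX opens the outer membrane and BCL2 opposes it. FAS ligand is best known from cytotoxic T lymphocytes and natural killer cells, and has been described in endometrium and placenta. TNFSF10 is an interferon-inducible gene, and the elongating ruminant conceptus secretes interferon tau at about this stage of pregnancy.

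The array probes were 60 bases long, and those of the ligands, the adaptor, the caspase and its inhibitor are shown because the differences described below rest on them. They are written 5' to 3' as listed in the study's probe table, without capitals since no stretch of them was singled out.
FASLG: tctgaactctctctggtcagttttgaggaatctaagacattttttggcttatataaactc
TNFSF10: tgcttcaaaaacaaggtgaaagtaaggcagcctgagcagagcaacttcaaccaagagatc
FADD, lead probe: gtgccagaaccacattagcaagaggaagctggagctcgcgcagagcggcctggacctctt
CASP8: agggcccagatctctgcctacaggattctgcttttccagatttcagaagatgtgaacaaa
CFLAR: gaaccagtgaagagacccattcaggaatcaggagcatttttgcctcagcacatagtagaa
Each of these 60-base runs held at least 1 forward reading frame without a stop codon. Base composition differed among them, with 35% G and C in the FASLG probe, 45% in the TNFSF10, CASP8 and CFLAR probes and 60% in the FADD probe. CASP8 and CFLAR lie on the same bovine chromosome in the RefSeq annotation, with 2 genes between them, LOC100848685 and FLACC1.

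A probe was tested where it was above background, at 80 signal units or more, in at least 22 of the 44 samples, and 8 of the 9 member probes and the FAS probe passed. The second BCL2 probe, A_73_117866, was above background in 1 of 44 samples and has no usable level here. The FASLG probe was the dimmest of the tested ones, with a mean signal of 296 units, and was above background in 37 of 44 samples, including 8 of 10 caruncular and 5 of 10 intercaruncular cyclic samples but all 24 pregnant ones. The remaining tested member probes were above background in all 44 samples, and none was saturated. All 7 endometrial marker genes on the array, among them PGR, ESR1 and FOXA2, were above background in every sample.

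Cows are named by their pregnancy state and number as in the labels, where the cyclic cows are called Non-Pregnant. The arrays of cows Non-Pregnant_9786 and Pregnant_9790 stood apart before any comparison. Cow Non-Pregnant_9786 had the lowest caruncular value of its group for TNFSF10, the lead FADD probe, CASP8, CFLAR, BAX and BCL2, and the highest for the second FADD probe. Cow Pregnant_9790, with a large embryo and sub-fertile, had the highest intercaruncular value of the pregnant group for TNFSF10, CASP8, CFLAR, BAX and BCL2. These were also the only cows with both tissues on 1 slide, and were scanned on a date of their own together with 4 repeat arrays, whereas the other 20 cows had their caruncular and intercaruncular samples on separate slides and scan dates. Pregnant and cyclic cows mostly sat on different slides too. One slide of each tissue held 3 pregnant cows and the cyclic cow Non-Pregnant_3972, and 1 further slide held caruncular arrays of 2 pregnant cows and 1 cyclic cow. The pregnancy differences are therefore also given within those slides, and some results without cow Non-Pregnant_9786 or cow Pregnant_9790. Between the arrays of the 4 samples that were hybridised again, tested member probes differed by -0.23 to 0.12.

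The comparison of pregnant with cyclic cows asked which of these genes responded to the presence of a conceptus. In caruncular endometrium TNFSF10, CASP8, CFLAR, FASLG and the FAS probe rose, and in intercaruncular endometrium the same 5 probes rose. A call required at least a 1.5-fold change and an adjusted p under 0.05 in limma over all tested probes. That made 4 of the 8 tested member probes, or 5 of 9 with the FAS probe, called higher and 0 called lower in each tissue. Over all probes tested, 10.2% were called in caruncular tissue, 5.96% as higher, and 7.45% in intercaruncular tissue, 4.16% as higher. The median difference of the 9 probes was 0.84 in caruncular and 0.71 in intercaruncular tissue, beside -0.04 and -0.01 over all probes tested. In bulk tissue fewer cells of a type and less RNA per cell cannot be told apart. Each sample of a group came from a different cow, so the errors are those between animals.

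**Figure D1:**
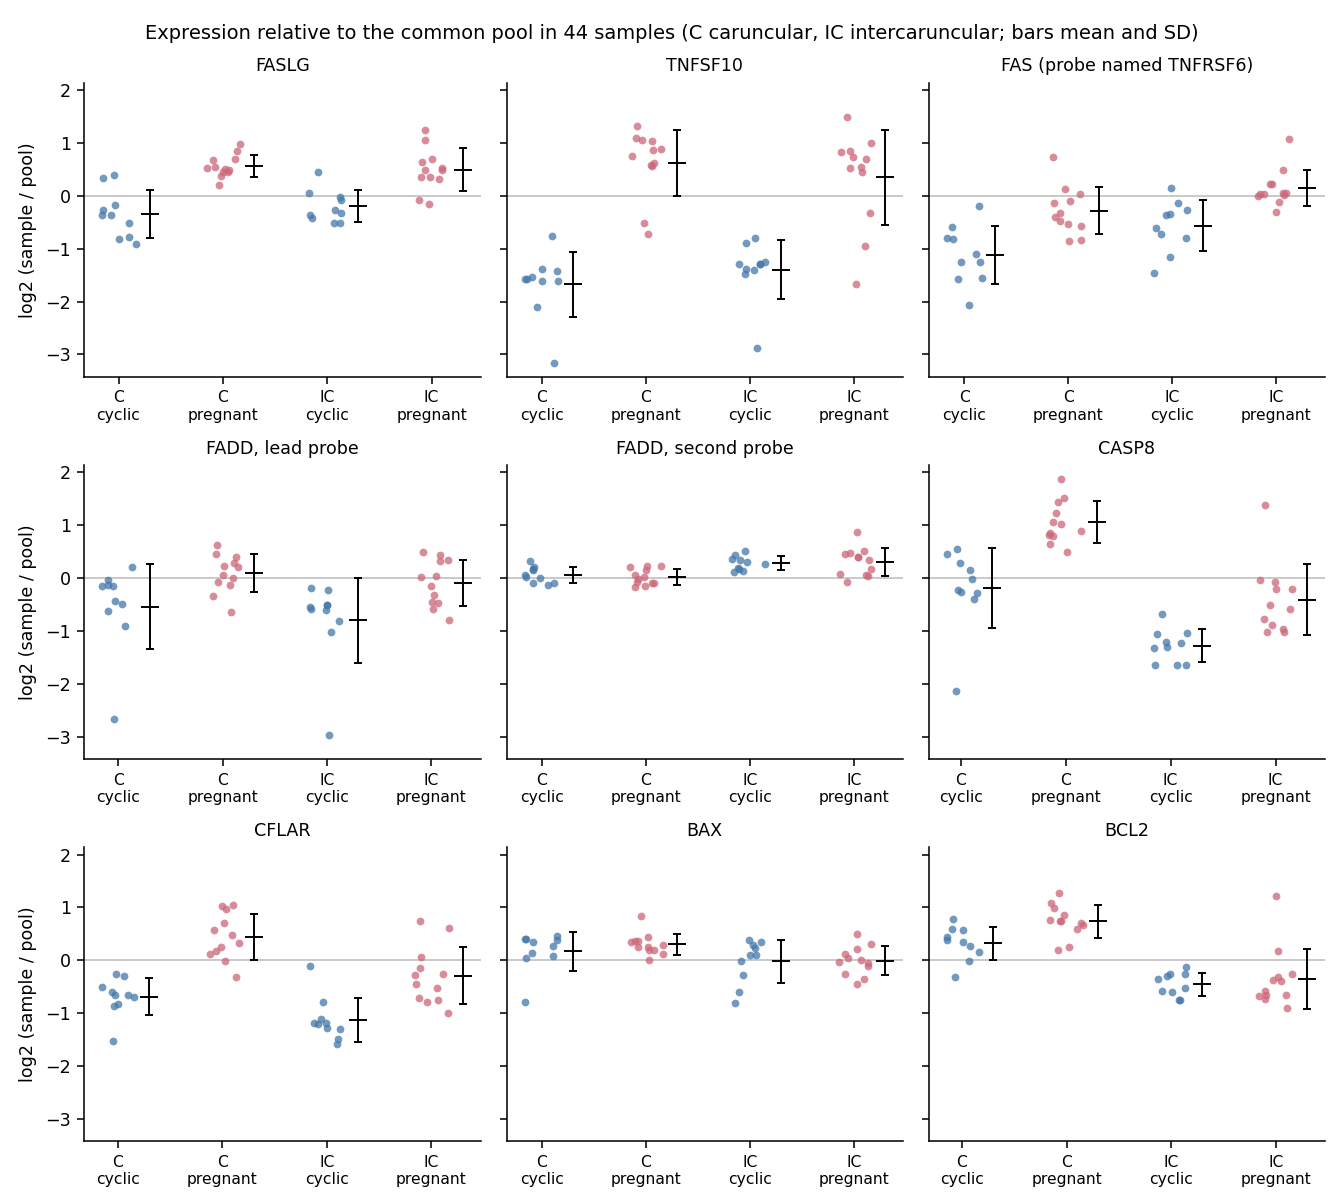
Log2 of sample over pool (vertical axis) for the 9 tested probes in caruncular (C) and intercaruncular (IC) endometrium of 10 cyclic and 12 pregnant cows. Each point is 1 sample and the bars are the group mean and SD. TNFSF10 shows the widest separation, with the 12 caruncular pregnant samples above all 10 cyclic ones, while BAX and the second FADD probe overlap in both tissues.

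The ligands rose in both tissues. Caruncular TNFSF10 values ran from -3.17 to -0.76 in the cyclic cows, with a median of -1.57, and from -0.72 to 1.33 in the pregnant cows, with a median of 0.81. The groups did not overlap, since the lowest pregnant value lay just above the highest cyclic one, and 1.58% of all probes separated the groups in this way. The difference was 2.30 ± 0.25 (SE, n = 12 and 10), or 4.94-fold, with an adjusted p of 7.73e-07. Intercaruncular TNFSF10 ran from -2.88 to -0.79 in cyclic cows, with a median of -1.29, and from -1.68 to 1.5 in pregnant cows, with a median of 0.62. Here 10 of 12 pregnant cows were above every cyclic cow, which 2.18% of all probes matched or exceeded, and 1 pregnant cow lay below the cyclic mean. The difference was 1.74 ± 0.31, or 3.35-fold, with an adjusted p of 0.000466. Without cow Non-Pregnant_9786 it was 2.14 in caruncular and 1.58 in intercaruncular tissue, and both calls held.

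FASLG values in caruncular tissue ran from -0.91 to 0.40 in cyclic cows, with a median of -0.36, and from 0.21 to 0.99 in pregnant cows, with a median of 0.52. Here 10 of 12 pregnant cows were above every cyclic cow, a separation matched or exceeded by 3.62% of all probes. The rise was 0.91 ± 0.14, or 1.88-fold, with an adjusted p of 7.43e-05. In intercaruncular tissue the cyclic range was -0.51 to 0.45 and the pregnant range -0.16 to 1.25, with medians of -0.30 and 0.49. These ranges overlapped, with 7 of 12 pregnant cows above every cyclic cow, and the rise was 0.69 ± 0.15, or 1.62-fold, with an adjusted p of 0.00263. With another background correction of the raw signals (normexp) the changes were 0.58 and 0.44, under 1.5-fold in each tissue, with adjusted p of 8.35e-05 and 0.00389. Some genes of natural killer and cytotoxic lymphocytes were also higher in pregnant cows. Of the 7 tested genes of that list 3 were called in caruncular tissue, KLRF1, NKG7 and PRF1, and 1 in intercaruncular tissue, KLRF1. NKG7 and PRF1 rose by 0.75 and 0.71 in caruncular tissue, and their intercaruncular differences of 0.44 and 0.58, with adjusted p of 0.0117 and 0.00683, were under 1.5-fold. The dim KLRF1 probe was above background in 10 of 12 pregnant and 0 of 10 cyclic caruncular samples and in 11 of 12 and 2 of 10 intercaruncular ones, so that no size is given for it. With 23 of 44 samples above background, KLRF1 passed the filter almost wholly through pregnant cows. Its calls, the only intercaruncular call of the list included, therefore set pregnant values against cyclic values mostly at background. GZMB was lower on its brighter probe, by -0.25 and -0.24, and higher on the other, by 0.25 and 0.38, and passed on neither. The mean of the list, KLRF1 included, ran from -0.61 to 0.12 in caruncular cyclic cows and from -0.17 to 0.65 in pregnant cows, and from -0.40 to 0.05 and from -0.59 to 0.80 in intercaruncular tissue. GZMA was higher by 0.36 and 0.33, under 1.5-fold, with adjusted p of 0.00157 and 0.0509. NCR1, a defining receptor of natural killer cells, was above background in 6 of 44 samples, 1 caruncular and 5 intercaruncular, all of pregnant cows. None of the 6 tested T lymphocyte genes was called in either tissue, nor any of 4 genes common to leukocytes. In caruncular tissue CD2 of the former and PTPRC, ITGB2 and CORO1A of the latter were nevertheless higher with an adjusted p under 0.05, by 0.30, 0.41, 0.42 and 0.56, and missed on fold alone. The remaining leukocyte gene, LCP1, went the other way, at -0.24 in caruncular and -0.36 in intercaruncular tissue, with adjusted p of 0.217 and 0.0339. The part of these cells in the FASLG difference was not tested.

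The receptor FAS, read by the TNFRSF6 probe, also rose in both tissues, with more overlap than TNFSF10. In caruncular endometrium it ran from -2.07 to -0.19 in cyclic cows, with a median of -1.17, and from -0.85 to 0.74 in pregnant cows, with a median of -0.36. All 12 pregnant cows were above the cyclic mean and 5 were above every cyclic cow. The rise was 0.84 ± 0.20, or 1.79-fold, with an adjusted p of 0.00418. In intercaruncular tissue it ran from -1.45 to 0.15 in cyclic and from -0.31 to 1.08 in pregnant cows, with medians of -0.49 and 0.05. Again 12 of 12 pregnant cows exceeded the cyclic mean, 4 of them every cyclic cow, and the rise was 0.72 ± 0.17, or 1.64-fold, with an adjusted p of 0.00516. That intercaruncular call was lost when slide entered the fit as a random block, with a rise of 0.58 and an adjusted p of 0.102.

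CASP8 and CFLAR, the initiator caspase and its catalytically inactive relative, rose together. Caruncular CASP8 ran from -2.13 to 0.55 in cyclic cows, with a median of -0.12, and from 0.50 to 1.88 in pregnant cows, with a median of 0.96. Only 1 pregnant cow was not above every cyclic cow. The rise was 1.24 ± 0.24, or 2.36-fold, with an adjusted p of 0.000673, and was 1.02 without cow Non-Pregnant_9786. Caruncular CFLAR ran from -1.52 to -0.25 in cyclic and from -0.31 to 1.05 in pregnant cows, with medians of -0.66 and 0.40. Again 11 of 12 pregnant cows were above every cyclic cow, a separation that 2.60% of all probes matched or exceeded. The rise was 1.13 ± 0.16, or 2.19-fold, with an adjusted p of 3.26e-05.

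In intercaruncular tissue both genes overlapped more between the states. CASP8 ran from -1.65 to -0.68 in cyclic cows, with a median of -1.27, and from -1.03 to 1.39 in pregnant cows, with a median of -0.55, and 7 of 12 pregnant cows were above every cyclic cow. Its rise was 0.87 ± 0.22, or 1.83-fold, with an adjusted p of 0.00805, and 0.71 without cow Pregnant_9790. CFLAR ran from -1.59 to -0.11 in cyclic cows, with a median of -1.19, and from -1.0 to 0.74 in pregnant cows, with a median of -0.37. All 12 pregnant values were above the cyclic mean but only 3 were above every cyclic cow. The CFLAR rise was 0.83 ± 0.20, or 1.78-fold, with an adjusted p of 0.00562.

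The mitochondrial members did not pass. BAX, which permeabilises the outer mitochondrial membrane, differed by 0.13 ± 0.12 in caruncular tissue and by 0.02 ± 0.14 in intercaruncular tissue, with adjusted p of 0.458 and 0.95. The 95% intervals of these differences were -0.12 to 0.38 and -0.28 to 0.31, below the 1.5-fold threshold of 0.585 on the log2 scale. BCL2, the anti-apoptotic founder of its family, was higher in caruncular pregnant samples by 0.42 ± 0.13, with an adjusted p of 0.0215 but a fold of 1.34, under the threshold. Its caruncular values ran from -0.31 to 0.77 in cyclic and from 0.20 to 1.28 in pregnant cows, and 4 of 12 pregnant cows exceeded every cyclic cow. In intercaruncular tissue BCL2 differed by 0.11 ± 0.18, with an adjusted p of 0.725, and by -0.04 without cow Pregnant_9790.

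**Figure D2:**
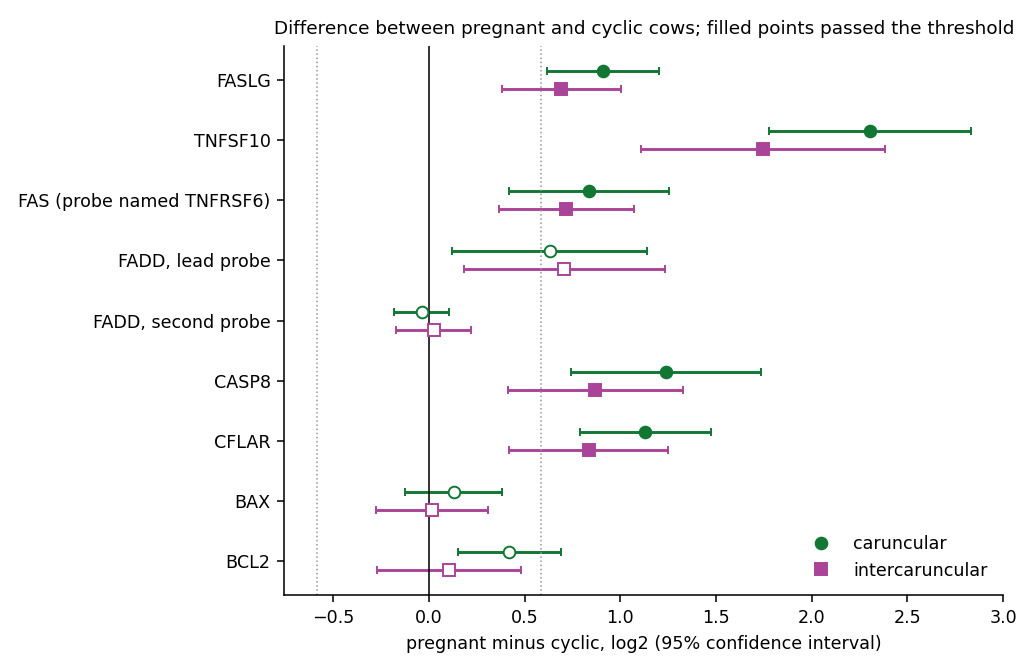
Pregnant minus cyclic difference on the log2 scale (horizontal axis) with its 95% interval for each tested probe, as circles for caruncular and squares for intercaruncular tissue. Filled symbols passed both thresholds and dotted lines mark 1.5-fold. The filled symbols are those of FASLG, TNFSF10, FAS, CASP8 and CFLAR in each tissue.

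FADD, the adaptor between receptor and caspase, gave a different answer on each of its probes. The lead probe, the brighter one with a mean signal of 1003 units, was higher in pregnant cows by 0.63 ± 0.25 in caruncular and 0.71 ± 0.25 in intercaruncular tissue. Its adjusted p values of 0.0621 and 0.0521 missed the threshold. The second probe, A_73_111855, with a mean signal of 321.9 units, differed by -0.04 ± 0.07 and 0.03 ± 0.09. The probes were then compared within each sample. In caruncular tissue the lead probe minus the second was -0.60 ± 0.91 (SD, n = 10) in cyclic cows and 0.07 ± 0.40 (SD, n = 12) in pregnant cows. The change between states was 0.67 ± 0.31 (SE), with an adjusted p of 0.0144 in a 2-sided permutation test of 100000 resamples adjusted over the 2 tissues. In intercaruncular tissue the difference was -1.08 ± 0.74 in cyclic and -0.40 ± 0.46 in pregnant cows, a change of 0.68 ± 0.27 with an adjusted p of 0.0106 in the same permutation test. By this test, which did not take slide into account, the probes of FADD did not change equally with pregnancy. On the caruncular slide of cow Non-Pregnant_3972 the second probe had the larger difference, 0.14 against 0.04. Which probe follows the FADD transcript was not tested. Cow Non-Pregnant_9786 weighed on the lead probe, at -2.66 in caruncular and -2.97 in intercaruncular tissue where the next lowest cyclic values were -0.91 and -1.02. Without that cow the difference between the probes changed by 0.40 and 0.46, with adjusted p of 0.0327 and 0.0237 in the permutation test, and the lead probe's own difference was 0.39 and 0.46, with limma adjusted p of 0.0507 and 0.0359.

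**Figure D3:**
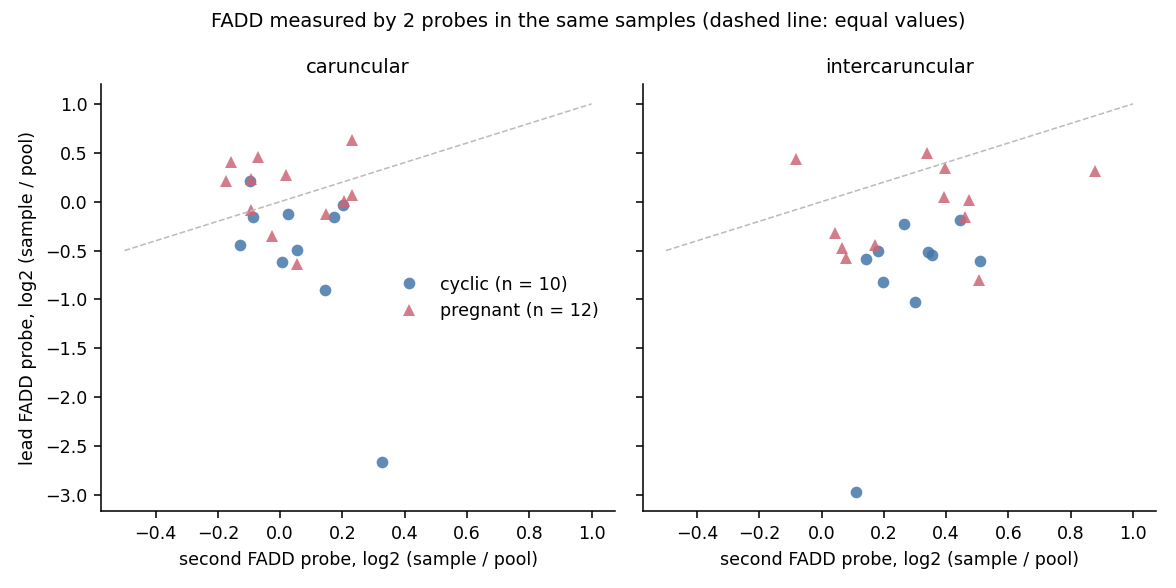
Lead FADD probe (vertical axis) against second FADD probe (horizontal axis), both log2 of sample over pool, in caruncular and intercaruncular endometrium, with circles for cyclic and triangles for pregnant cows and a dashed line where the probes are equal. The lead probe spans -2.97 to 0.63 over the 44 samples while the second stays between -0.17 and 0.88.

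State and slide coincided for most cows, so the change was also read within slides. On the caruncular slide with 3 pregnant cows and the cyclic cow Non-Pregnant_3972, TNFSF10 was 2.27 higher in the pregnant cows and FAS 1.17 higher. On that slide CFLAR was 0.42 higher, CASP8 0.29, FASLG 0.14, the lead FADD probe 0.04 and the second FADD probe 0.14. Cow Non-Pregnant_3972 had the highest caruncular value of the 10 cyclic cows for FASLG, the lead FADD probe, CASP8 and CFLAR. On the intercaruncular slide of the same 4 cows, TNFSF10 was 1.93 higher, CASP8 0.88, the lead FADD probe 0.76, CFLAR 0.59, FASLG 0.39 and FAS 0.14. The second FADD probe was 0.09 higher on that slide. The further caruncular slide held the array of cow Pregnant_9790 and repeat arrays of cows Pregnant_926 and Non-Pregnant_9960, whose first arrays were on other slides. There the 2 pregnant cows exceeded the 1 cyclic cow by 2.57 for TNFSF10, 1.36 for FASLG, 1.34 for CFLAR, 1.2 for CASP8, 1.05 for the lead FADD probe and 0.31 for FAS. The second FADD probe differed by -0.09 there. The difference was above 0 on each of these slides for TNFSF10, FASLG, FAS, CASP8 and CFLAR. It was also above 0 on each of them for the lead FADD probe, which was not called. With slide as a fixed block, the fit of each tissue drew its state difference only from the slide with cow Non-Pregnant_3972. It gave the differences of that slide, such as 2.27 and 1.93 for TNFSF10. With 1 cyclic cow behind it, that fit cannot decide whether the calls hold, and its counts are listed only among the alternatives.

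A difference of the response between tissues was tested by an interaction term in a fit over all 44 samples. This fit left out that both tissues came from the same cows, so its errors and intervals ignore the pairing. No member probe passed, and over all probes 0.0511% did. The TNFSF10 response was 0.56 ± 0.41 larger in caruncular tissue, with a 95% interval of -0.27 to 1.39 and an adjusted p of 0.876. The CASP8 response was 0.37 ± 0.33 larger and the CFLAR response 0.30 ± 0.26 larger, with adjusted p of 0.937 and 0.935. The intervals allowed differences of more than 1.5-fold for these genes in caruncular tissue, so equal responses were not shown. With cow as a fixed block the TNFSF10 difference of 0.56 had an SE of 0.17, an unadjusted limma p of 0.00277 and an adjusted p of 0.0875. Over all probes 2676 of 15641 had an unadjusted p under 0.05 in that fit. With cow as a random block the TNFSF10 values were 0.26, 0.0376 and 0.252.

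Between the tissues of the same state, CASP8, CFLAR and BCL2 were higher in caruncular samples. In cyclic cows 4 of the 9 probes passed an adjusted p under 0.05, beside 33.6% of all probes, namely CASP8 at 1.09 ± 0.25, BCL2 at 0.77 ± 0.12, CFLAR at 0.44 ± 0.17 and the second FADD probe at -0.22 ± 0.07. In pregnant cows 6 of 9 passed, beside 48.2% of all probes. These were CASP8 at 1.46 ± 0.22, BCL2 at 1.09 ± 0.18, CFLAR at 0.73 ± 0.19, BAX at 0.31 ± 0.10, FAS at -0.43 ± 0.16 and the second FADD probe at -0.29 ± 0.09. FAS thus lay lower in caruncular samples while CASP8 and CFLAR lay higher. The cyclic CFLAR difference, with an adjusted p of 0.0487, missed the threshold under 5 alternatives, at 0.0542 to 0.0701, and the second FADD probe missed it with normexp, at 0.107. Of the other apoptosis genes, those with the smallest adjusted p were DFFA, XIAP and DIABLO in cyclic cows, higher in caruncular samples by 0.65, 1.19 and 0.29, and XIAP, DFFA and BOK in pregnant cows, at 1.25, 0.59 and -0.58. FASLG and TNFSF10 did not pass in either state, at -0.14 and 0.07 for FASLG and -0.28 and 0.28 for TNFSF10. As both tissues came from the same cows, cow was also taken as a block. With cow as a fixed block, TNFSF10, FAS at -0.55 and the lead FADD probe at 0.26 passed in cyclic cows as well, with adjusted p of 0.0126, 0.0069 and 0.0366, and with cow as a random block FAS did, at 0.00429, but TNFSF10 and FADD did not, at 0.117 and 0.277.

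In the cows with both tissues on 1 slide, several of these tissue differences had the opposite sign. CASP8 was 0.49 lower in the caruncular sample of each of them, at -0.49 in both cow Non-Pregnant_9786 and cow Pregnant_9790, whereas it was 0.45 to 1.88 higher in the other 9 cyclic cows and 0.85 to 2.91 higher in the other 11 pregnant cows. BCL2 was -0.18 in cow Non-Pregnant_9786 and -0.13 in cow Pregnant_9790, against 0.58 to 1.30 and 0.63 to 1.74 in the others. CFLAR was -0.73 and -0.27, against -0.71 to 0.99 and 0.08 to 1.97. FAS kept its direction, at -0.96 and -0.62. Of all probes that passed in cyclic cows, 58.6% had the same direction in cow Non-Pregnant_9786, and of those that passed in pregnant cows, 66.8% had it in cow Pregnant_9790. For the other 20 cows tissue and slide cannot be told apart.

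Embryo size was compared within the pregnant cows. In intercaruncular endometrium the lead FADD probe was higher with a large embryo, the only 1 of the 9 probes to pass, beside 3.38% of all probes, 1.44% as higher with a large embryo. The small-embryo cows had values of -0.80, -0.58, -0.47, -0.44 and -0.32, and the 7 large-embryo cows ran from -0.16 to 0.50 with a median of 0.32. Every large-embryo cow was above every small-embryo cow, as for 1.34% of all probes. The difference was 0.74 ± 0.13 (SE, n = 7 and 5), or 1.67-fold, with an adjusted p of 0.0232. Leaving out 1 cow at a time kept it between 0.67 and 0.80, but the adjusted p rose above the threshold without cow Pregnant_932, Pregnant_3805, Pregnant_3807 or Pregnant_9246, to 0.0688 at most. The second FADD probe differed by 0.24 ± 0.14, with an adjusted p of 0.372.

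TNFSF10 in the same tissue also separated the embryo sizes, without passing. Its small-embryo values were -1.68, -0.94, -0.32, 0.45 and 0.52, and its large-embryo values ran from 0.54 to 1.5 with a median of 0.83. The small-embryo cows were spread from the cyclic level up to the lower edge of the large-embryo cows. The difference was 1.27 ± 0.34, with an adjusted p of 0.0592, and passed without cow Pregnant_9790, at 1.17 with an adjusted p of 0.0473, and with slide as a random block, at 1.30 with 0.0471. CFLAR, FASLG and CASP8 were higher with a large embryo by 0.71, 0.53 and 0.75 in intercaruncular tissue, with adjusted p of 0.1, 0.107 and 0.188. All 9 probes had a positive difference there, with a median of 0.53 beside -0.01 over all probes. In caruncular endometrium 0.00% of probes passed, and 1071 (6.85%) had an unadjusted p under 0.05 in limma. TNFSF10 differed there by 0.64 ± 0.30, with an adjusted p of 0.729, and its small-embryo values included the lowest caruncular pregnant values, -0.72 in cow Pregnant_977 and -0.51 in cow Pregnant_932.

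**Figure D4:**
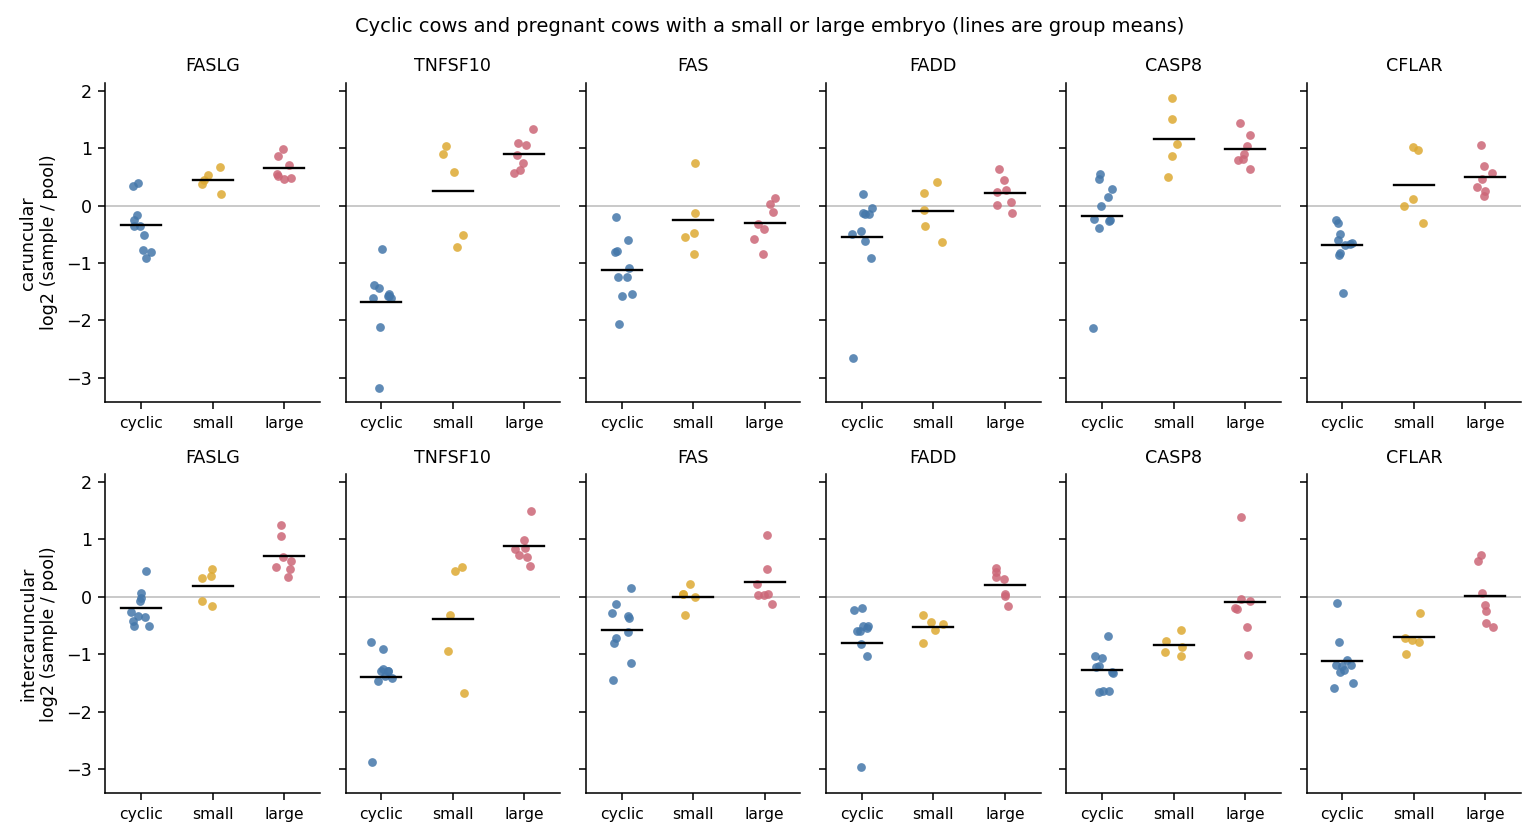
Log2 of sample over pool for 6 genes in cyclic cows (n = 10) and in pregnant cows with a small (n = 5) or a large (n = 7) embryo, caruncular in the upper row and intercaruncular in the lower, with lines at the group means. In the lower row the 7 large-embryo cows lie above all 5 small-embryo cows for FADD and TNFSF10.

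The fertility label separated no member. In caruncular tissue 0 member probes passed, beside 0.00639% of all probes, and in intercaruncular tissue 0 passed, beside 0.0511%. Unadjusted p values were under 0.05 for 3 members in caruncular tissue, higher in fertile cows, FAS by 0.60 ± 0.18, CFLAR by 0.50 ± 0.19 and CASP8 by 0.47 ± 0.18, with adjusted p of 0.286, 0.316 and 0.31. Over all probes 13.6% had an unadjusted p under 0.05 in each tissue. In intercaruncular tissue the members were FAS, higher in fertile cows by 0.39 ± 0.16, and BAX, lower by -0.32 ± 0.13, with adjusted p of 0.331 and 0.317. FAS was above the sub-fertile mean in all 6 fertile cows of each tissue, with caruncular ranges of -0.54 to 0.74 in fertile and -0.85 to -0.33 in sub-fertile cows. Of the fertile cows 3 carried a large and 3 a small embryo, and of the sub-fertile cows 4 and 2.

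The members were then set among the other genes of apoptosis, a list of 69 genes of which 58 had a probe and 55 a tested one. Of the 47 tested genes that are not members, 11 rose and 1 fell in caruncular tissue and 4 rose and 1 fell in intercaruncular tissue. These were 25.5% of the genes beside 10.2% of all probes in caruncular tissue, and 10.6% beside 7.45% in intercaruncular tissue. They rest on 1 probe a gene, and a second probe of BIRC5, an inhibitor of apoptosis protein, was lower in intercaruncular tissue by -0.59, with an adjusted p of 0.0145, where the lead probe was at 0.01. The median of the whole list was 0.25 and 0.15, beside -0.04 and -0.01 over all probes. PMAIP1, which encodes the pro-apoptotic BH3 protein NOXA, rose by 1.58 ± 0.22 in caruncular tissue, with an adjusted p of 2.16e-05 and all 12 pregnant cows above every cyclic cow, and by 1.02 ± 0.18 in intercaruncular tissue. BCL2L11, the BH3 protein BIM, rose in caruncular tissue by 1.08 ± 0.21, as did BCL2L12, by 1.27 ± 0.19. The anti-apoptotic MCL1 rose in both tissues, by 0.79 ± 0.15 and 0.68 ± 0.13, and BCL2A1, also anti-apoptotic, by 0.76 ± 0.21 in caruncular tissue. BCL2 family genes that promote and that oppose death were therefore both among those that rose. BIK, another BH3 gene, fell in both tissues, by 0.99 ± 0.19 on the log2 scale in caruncular and 0.71 ± 0.22 in intercaruncular tissue, and its probe was above background in 2 of 12 pregnant and 7 of 10 cyclic caruncular samples and in 9 of 12 and 7 of 10 intercaruncular ones. With normexp both BIK calls were lost, at -0.45 (under 1.5-fold) and -0.29 (adjusted p 0.0864), as was the intercaruncular one with slide as a random block, at -0.54 (adjusted p 0.263).

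Downstream of caspase 8, the executioner CASP6 did not pass, at -0.41 and -0.31. XIAP, which inhibits executioner caspases, rose by 0.79 ± 0.13 in caruncular and 0.73 ± 0.22 in intercaruncular tissue, the latter 0.58 without cow Pregnant_9790 and then under 1.5-fold, and with an adjusted p of 0.101 with slide as a random block. AIFM1, a mitochondrial flavoprotein, rose by 0.85 ± 0.14 in caruncular tissue. Of the 9 other ligands and receptors only TNF passed, in caruncular tissue, by 0.89 ± 0.21. TNFRSF1A, the main TNF receptor, differed by 0.29 and 0.28. Of the 7 other adaptors only DAXX passed, in caruncular tissue, by 0.75 ± 0.15, while RIPK1, a kinase of receptor complexes, was higher by 0.31 and 0.33, with adjusted p of 2.68e-05 and 0.00438 but under 1.5-fold. Another RIPK1 probe was higher by 0.55 and 0.53, with adjusted p of 0.00712 and 0.0226, and was also under 1.5-fold. TRADD, the adaptor of TNF receptor 1, differed by 0.00 and -0.02.

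**Figure D5:**
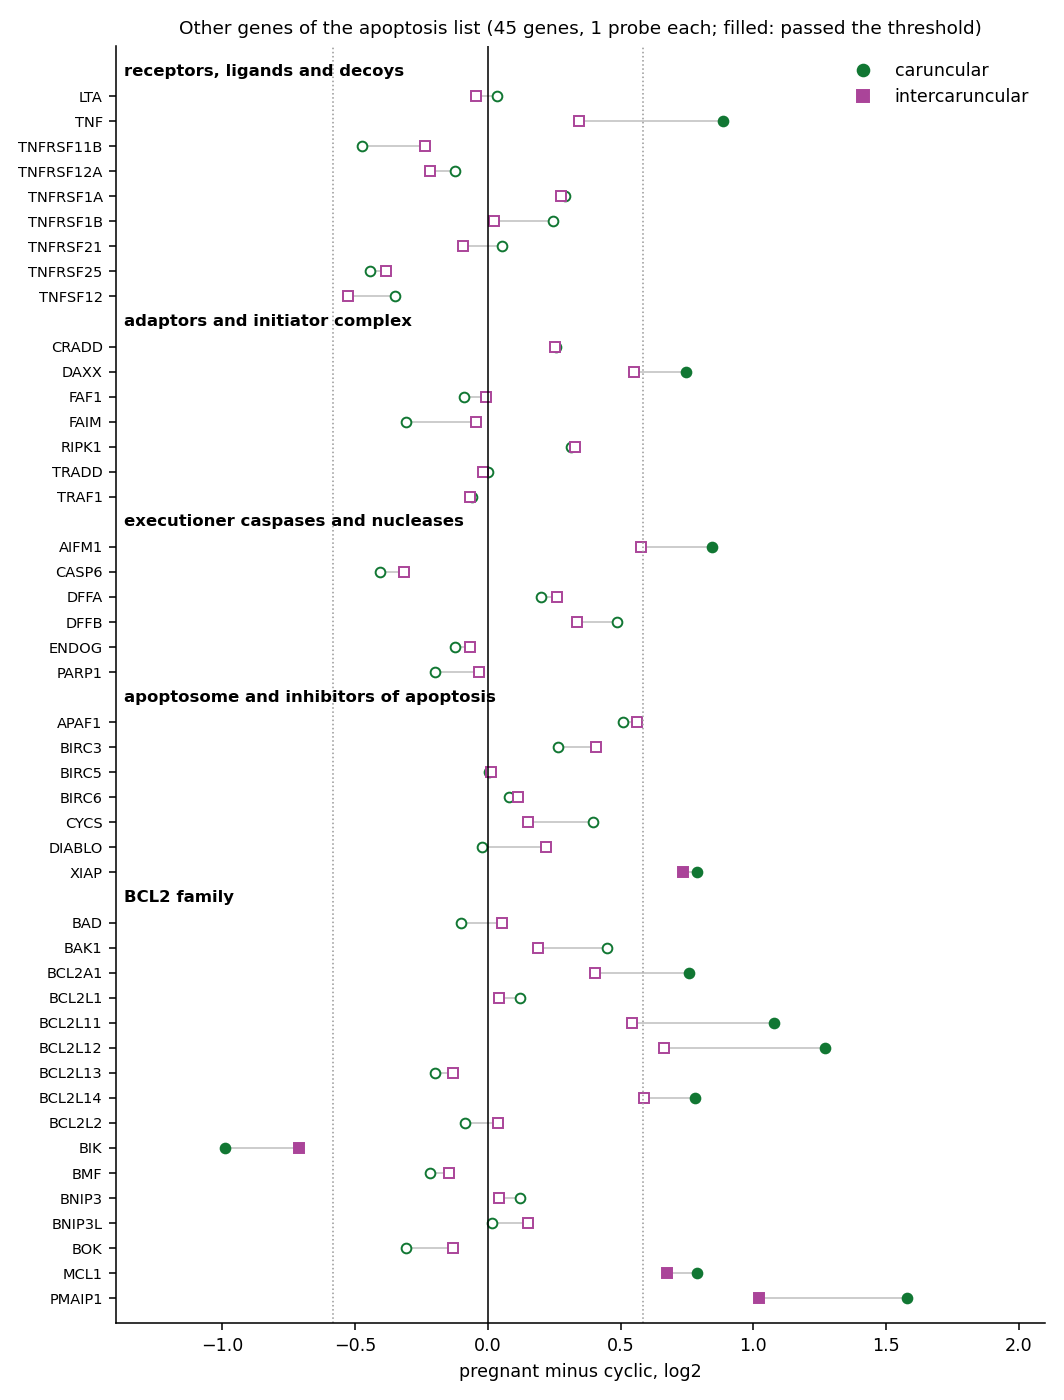
Pregnant minus cyclic difference on the log2 scale (horizontal axis) for 45 of the 47 other tested genes of the apoptosis list by role, 1 probe each, as circles for caruncular and squares for intercaruncular tissue. Filled symbols passed both thresholds and dotted lines mark 1.5-fold. BIK is the only filled symbol to the left of 0, and PMAIP1 lies farthest to the right in each tissue.

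The genes whose values lay nearest each member over the 44 samples were found by the mean absolute difference in log2 of sample over pool. For TNFSF10 these were ISGF3G, PML and TREX1, at 0.37, 0.42 and 0.44, where the median over all genes was 1.18. For CFLAR they were PAPD4, DLAT and TMBIM4, at 0.24, 0.27 and 0.28, with a median of 0.76. For CASP8 they were LOC527955, HTATSF1 and MORC3, at 0.26, 0.27 and 0.28, with a median of 0.91. Among those nearest FASLG were GPR7 and SEBOX, at 0.25 and 0.28, with a median of 0.56, and for FAS they were CNDP2, PSME2 and FLJ13391, at 0.33, 0.35 and 0.35, with a median of 0.69. The points share the pool and each array's centring, so the distances are a description.

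Markers of other cells moved with pregnancy as well. Among macrophage genes AIF1 and CSF1R rose in both tissues, 2 of 5 tested, and the mean of that list ran from -1.09 to -0.22 in caruncular cyclic and -0.55 to 0.65 in pregnant cows, and from -0.88 to -0.20 and -0.57 to 0.65 in intercaruncular tissue. Smooth muscle genes fell, 3 of 4 in each tissue, ACTA2, CNN1 and MYH11. Endothelial PECAM1 and TEK fell in each tissue, 2 of 5, and of the 5 stromal genes COL3A1 fell in both and COL1A1 and COL1A2 in intercaruncular tissue. The oestrogen receptor gene ESR1, 1 of the 7 endometrial markers, fell in each tissue, by 0.96 and 0.86 on the log2 scale. Of the epithelial genes CDH1 rose in both tissues while KRT18 and KRT19 fell in caruncular tissue. Of the conceptus genes 5 had a probe and 1, PAG1, had a tested one. That probe was not called, and was above background in all 44 samples, those of cyclic cows included. Another PAG1 probe, not tested, was above background in 13 of 44 samples. These were 8 pregnant and 3 cyclic intercaruncular samples and 1 caruncular sample of each state. The probes of PAG2, TKDP1, CDX2 and CSH1 were each above background in 2 of 44 samples. The part of these cells in the member differences was not tested.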

How the data were processed

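Endometrium of 22 cows was measured on 48 two-colour Agilent arrays, 44 samples and 4 repeats. The authors deposited scanner intensity values and a log10 ratio of Cy5 over Cy3, background-subtracted and LOWESS dye-normalised by Feature Extraction (version 9.5.3.1 per the file headers). A deposited log2 value table equalled the scanner ratios within 1e-05 in 40 of 48 columns. Here ratios were turned to log2, outlier spots dropped, spots of a probe averaged, array medians subtracted (already 0 on each array, so that centring changed no value) and repeats averaged. Of 21475 probes, 15643 passed the filter, after the study's methods. Between 68.8% and 84.03% of spots per array were well above background. The number of arrays limits the precision. limma 3.58.1 (R 4.3.3) with Benjamini-Hochberg adjustment was fitted per comparison over all tested probes. The probe comparison used scipy 1.17.1. Code was tested on simulated data. All member probes are named, with the brightest tested probe of a gene leading. From the apoptosis list the rule named the 4 largest rises and falls among the called non-members per tissue, up to 3 called by adjusted p in the other comparisons, and the 3 nearest genes to each called member; further list and marker genes were named after their values were seen. The members, lists and rules were chosen with earlier results of these data known. Alternatives changed the background correction, filter, blocks, centring, value table and samples. Some genes that these rules name or that the list holds are not reported here by name or in the plot, but are included in the counts.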

Additional observations from a re-analysis of the deposited data

Results flagged for a closer look

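In groups of 4 to 10 samples the highest or lowest value was set against Dixon's 95% critical value, which chance exceeds in about 1 in 20 groups, and 14 of 90 groups of member values exceeded it. Cow Non-Pregnant_9786 accounted for 6 of them, with low values of TNFSF10 in intercaruncular tissue (-2.88), of the lead FADD probe in caruncular (-2.66) and intercaruncular tissue (-2.97), and of CASP8 (-2.13), CFLAR (-1.52) and BAX (-0.80) in caruncular tissue. Cow Pregnant_9790 accounted for 4, with high intercaruncular values of CASP8 (1.39) and BCL2 (1.22), each among the large-embryo and among the sub-fertile cows. Caruncular TNFSF10 of cow Pregnant_977 was low among the sub-fertile cows (-0.72). Cow Pregnant_3803 was high for the second FADD probe among the caruncular sub-fertile samples (0.23) and for BAX among the caruncular large-embryo samples (0.83). The second FADD probe was high in cow Pregnant_9246 among the intercaruncular small-embryo samples (0.50). No member probe passed the interaction test of the pregnancy effect between the tissues.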

How the results depend on the processing

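The alternatives were another background correction (normexp with loess), no filter or a stricter one, the deposited value table, slide, scan date or cow as a block, all samples in 1 fit, covariates and single cows left out, with centring on tested probes and leaving out cows Non-Pregnant_9786 and Pregnant_9790 outside the embryo comparison added after seeing the data. With slide as a fixed block the pregnancy calls fell to 57 caruncular and 129 intercaruncular probes and 0 member probes, because few slides held both states, and BCL2 turned to -0.082 and -0.32, the second FADD probe to 0.14 in caruncular tissue and BIK to 0.12 in intercaruncular tissue. The fit with slide as a fixed block drew on 1 cyclic cow in each tissue. Its counts and signs therefore cannot decide whether the pregnancy calls hold. Slide as a random block left 708 intercaruncular calls. The same-numbered samples came from 1 cow, and their deviations from the group means correlated in 22 of 22 cows (0.129 to 0.862, median 0.62). With cow as a replicate block, the interaction calls rose from 8 to 158 (fixed) and 440 (random), with no member among them, and the cyclic tissue calls to 8421 and 8487, with FAS (adjusted p 0.0069), TNFSF10 (0.0126) and the lead FADD probe (0.0366) gained and CFLAR (0.058) lost under the fixed block, and FAS (0.00429) gained under the random one. The interaction gave 5 calls with normexp, 4 with the deposited table and 13 to 114 without 1 of the 2 cows. Normexp left 2 cyclic tissue calls among members. The lead FADD probe passed for pregnancy with scan date as a block (adjusted p 0.0363 and 0.0359) and with the deposited table (0.0497 and 0.0484), and in intercaruncular tissue with normexp (0.0465) and all samples in 1 fit (0.0411). Intercaruncular embryo-size calls were 319 with no filter, 879 with slide as a random block (2 members) and 26 to 1929 without 1 cow (0 to 2 members). Fertility calls were 0 in caruncular tissue with no filter, with embryo size as a covariate or without cow Pregnant_9790, and in intercaruncular tissue 4 with no filter, 3 with slide as a random block and 36 without cow Pregnant_9790. Small differences that were not called also changed sign, namely for embryo size in caruncular tissue BAX with normexp (-0.0116), with the fertility label (-0.0096) and between -0.073 and 0.064 without 1 cow, FAS with the fertility label (0.0571) and between -0.19 and 0.20 without 1 cow, and CFLAR between -0.0186 and 0.31, for embryo size in intercaruncular tissue BCL2 with slide as a random block (-0.0594) and between -0.23 and 0.16 without 1 cow, for intercaruncular fertility BCL2 with normexp (-0.0109), FASLG (0.0179) and CFLAR (0.11) with embryo size as a covariate and CFLAR without cow Pregnant_9790 (0.20), and for intercaruncular pregnancy BAX (-0.071 to -0.0294 without 1 of the 2 cows) and BCL2 (-0.0373 without cow Pregnant_9790). Except where stated, the cause was not tested. A dim probe such as FASLG limits what its ratio can show.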
